A study of Mus musculus with 149 samples.

Results

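The cells compared here came from a preparation of hepatocytes, the parenchymal cells of the liver, and were caught on the large chip (traps of 17 to 25 µm) of the Fluidigm C1, a microfluidic instrument that isolates single cells for RNA sequencing. All of them came from 1 mouse, an untreated wild-type C57BL/6 male aged 8 weeks, whose liver was digested by perfusion and whose hepatocytes were enriched by slow spins. The large chip gave 80 of the 149 cells of the series. In 64 of them the ERCC spike-ins, synthetic RNAs added to the lysis mix, made up less than 50% of the summed values, and these 64 cells, chosen by that measured share, were ranked by the left-to-right position of their columns in the deposited table. The 22 cells of ranks 22 to 43 form the middle group and the 21 cells of ranks 44 to 64 the pericentral group, 43 cells of 149 in all. The 21 cells of ranks 1 to 21 serve as a reference. The highest spike-in share inside the limit was 40.99%, in the middle cell of rank 26, and the lowest outside it was 52.4%.

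The name of the table refers to WaveCrest, which orders cells by their expression, and to SCnorm, which normalises single-cell values. Any gene may therefore have helped to place the cells in columns. Every difference between the groups below is a description of these 43 cells, with no test, and an SD is a spread between cells of 1 mouse and not between animals. Nothing in the labels says how cells or genes were filtered.

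In a liver lobule blood flows from the portal tracts to the central vein, and hepatocytes along this path divide the work of the organ. Cells near the portal tract are known for making glucose and urea, breaking down amino acids and secreting plasma proteins. Cells near the central vein are known for cytochrome P450 enzymes, bile acid synthesis and, in the layer that touches the vein, glutamine synthesis, and many of their genes depend on Wnt signals from the endothelium of that vein. Hepatocytes halfway along are known for genes such as Hamp, which encodes the iron hormone hepcidin.

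A value below is the deposited normalised expected count of a gene in a cell. It is not scaled to gene length or to a fixed total per cell, so levels are compared within a gene and never between genes. A difference is the log2 ratio of the pericentral mean over the middle mean after adding 1 to each. The separation is the share of all pairs of 1 pericentral and 1 middle cell in which the pericentral cell is higher, ties counting as 0.5 of a pair. A gene was called higher in pericentral cells with a log2 ratio of at least 1 and a separation of at least 0.75, and lower with a log2 ratio of -1 or less and a separation of 0.25 or less.

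The labels of both groups were compared with the 4 marker genes, Cyp2e1, Cyp2c29, Oat and Cyp1a2. Cyp2e1, a cytochrome P450 that oxidises ethanol and paracetamol (chromosome 7, 140763739 to 140774987 in mm10), had a lowest, median and highest value of 7.49, 80.3 and 8048 in middle cells and of 2887, 14984 and 29793 in pericentral cells. Its mean went from 738 ± 1784 (SD, n = 22 cells) to 15365 ± 6402 (SD, n = 21 cells), a log2 ratio of 4.38. The single middle cell of rank 43 lay within the pericentral range. Cyp2c29, another P450 (chromosome 19, 39269405 to 39330713), ran from 0 through a median of 4.98 to 4683 in middle cells and from 2223 through 5663 to 15283 in pericentral cells, with a log2 ratio of 4.33. Oat, the ornithine aminotransferase that feeds glutamate to glutamine synthesis (chromosome 7, 132557478 to 132576398), ran from 0 through 0 to 148 and from 21.7 through 338 to 6526, with a log2 ratio of 6.63. Cyp1a2, the P450 that demethylates caffeine (chromosome 9, 57676937 to 57683703), ran from 0 through 18.9 to 247 and from 348 through 720 to 1851, with a log2 ratio of 3.62. For Cyp1a2 the cells of the groups did not overlap. All 4 markers were above 0 in all 21 pericentral cells, so the pericentral label fits its markers. The column order may itself rest on these genes, so this is a description and not an independent check.

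The middle label fits less well. The first 16 middle cells, ranks 22 to 37, stood at columns 28 to 57, and the last 6, ranks 38 to 43, at columns 89 to 120, just before the pericentral cells at columns 121 to 149. Cyp2e1 had a median of 15 in ranks 1 to 21, of 59.7 in ranks 22 to 37 and of 1623 in ranks 38 to 43. Cyp2f2, a P450 known as periportal, had medians of 4960, 4871 and 444 in the same cells and of 5.09 in pericentral cells. By Cyp2f2 the first 16 middle cells were close to ranks 1 to 21. Cyp2e1 was higher in them than in ranks 1 to 21, and median Cyp1a2 was 12.7 against 0.54. Both stayed far below the pericentral medians, and levels between the ends were found among the last 6. Of these 6, ranks 38, 39, 41 and 42 also carried markers of other cell types, described below. Cyp2f2 was 170 and 718 in ranks 38 and 41, and 4425, 2529, 47.3 and 104 in ranks 39, 40, 42 and 43. The middle group is therefore named here by its ranks and not as a zone of the lobule. The first pericentral cell, rank 44, also carried both kinds of marker, with Cyp2e1 at 2887 and Cyp2f2 at 2556.

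**Figure D1:**
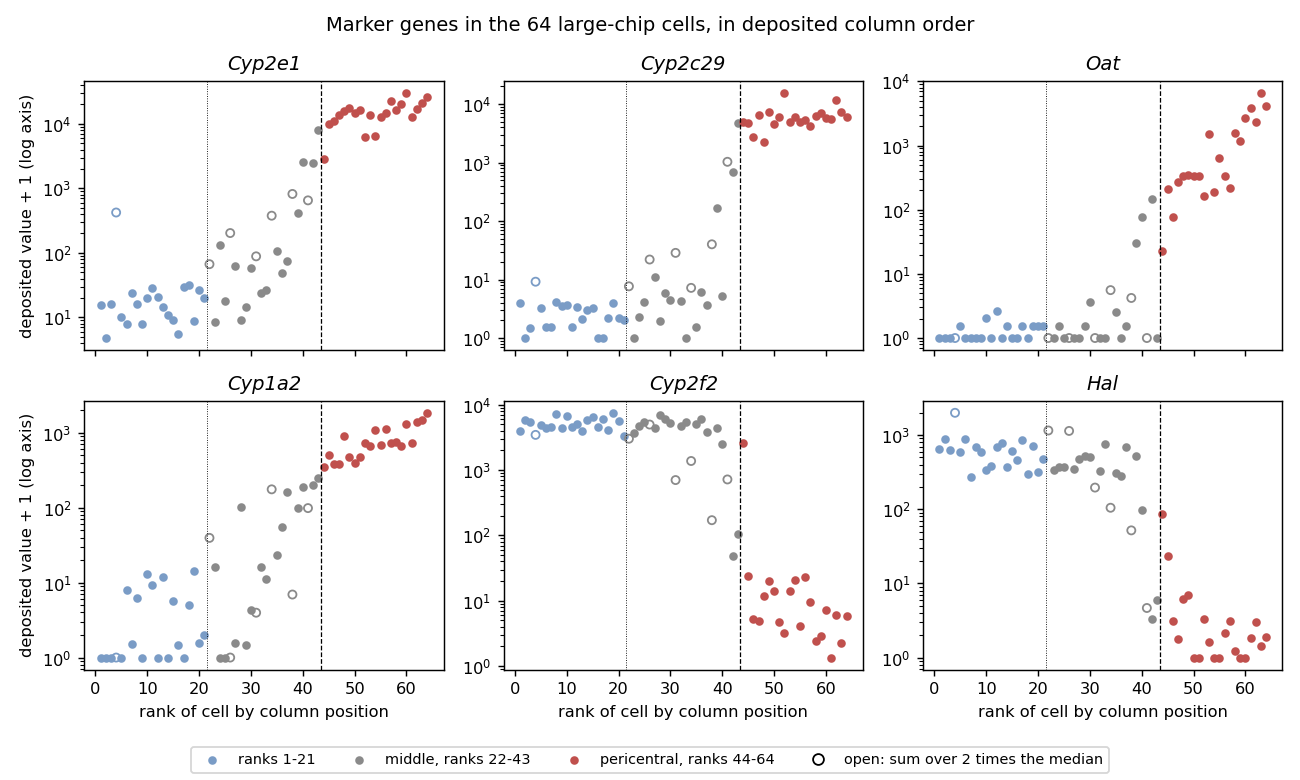
Values of 6 genes in the 64 large-chip cells (each point is a cell, vertical log axis of the deposited value + 1, horizontal axis the rank by column position). Open circles are cells whose values sum to over 2 times the median. In ranks 22 to 37 Cyp2e1 stays at 376 or less and Cyp2c29 at 27.6 or less, whereas the lowest pericentral cells are at 2887 and 2223.

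A set of middle cells stood apart from the other cells. The sum of all values was above 2 times the median of the 64 cells (1807060) in 6 of 22 middle cells, ranks 22, 26, 31, 34, 38 and 41, in 0 of 21 pericentral cells and in 1 of ranks 1 to 21. These 6 sums ran from 5171760 to 5628710, and the spike-in share of the same cells from 28.6% to 40.99%. Over all cells the spike-in share had a median of 4.02% in middle and 2.39% in pericentral cells, and the number of genes above 0 a median of 7231 and 7806. The cells of ranks 38 and 41 had all 16 markers of sinusoidal endothelium, the cells that line the blood spaces, at 10 or more, with sums of 104337 and 139398 over those markers, while the median middle cell had 3.08. Their hepatocyte sums, over the 8 markers given below, were 29608 and 27471, with 7 of 8 markers at 10 or more, so the hepatocyte label describes these 2 cells in part only. Leaving aside bile duct markers, which hepatocytes near the portal tract share in part, 3 or more markers of another cell type at 10 or more were found in 4 middle cells (ranks 38, 39, 41 and 42) and 2 pericentral cells (ranks 49 and 55), whose endothelial sums were 165 and 1295. At least 3 of 7 bile duct markers were at 10 or more in 4 other middle cells (ranks 26, 32, 33 and 34), in the pericentral cell of rank 45 and in 6 cells of ranks 1 to 21. Of 12 Kupffer cell markers, 8 were at 0 in all middle cells and 10 in all pericentral cells, with Clec4f, Vsig4, Cd5l, Marco and Timd4 at 0 in both. Summed Kupffer markers reached 496 in rank 41 and 218 in rank 38, and at most 1.56 in pericentral cells. The hepatocyte list (8 markers, among them Alb, Ttr and Cps1) was above 0 throughout, with sums of 27471 to 259681 in middle and 44178 to 135165 in pericentral cells. No doublet caller was run. Because the large sums raise a middle mean, counts of called genes are also given without these 6 cells (16 middle against 21 pericentral cells) where they differ, and the part of these cells in the other results was not tested.

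**Figure D2:**
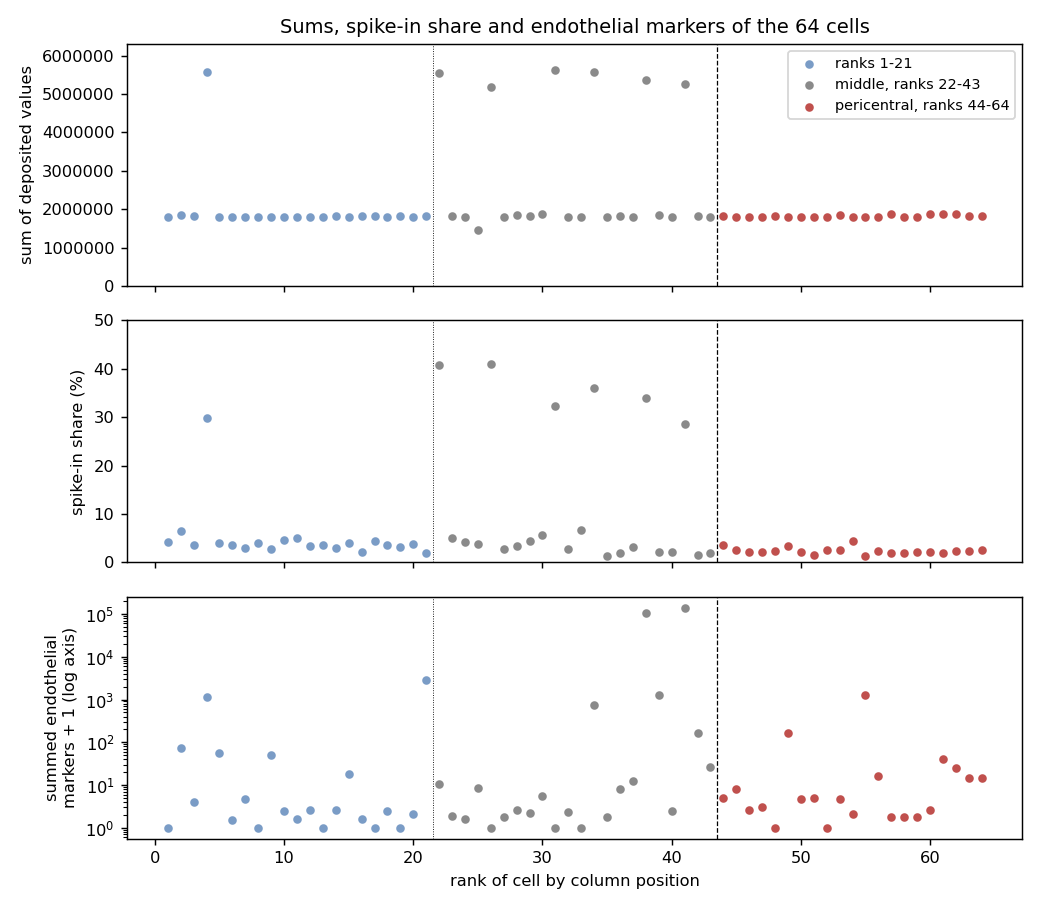
Sum of all deposited values, spike-in share in percent and summed values of 16 endothelial markers (log axis, + 1) for each of the 64 cells by rank. The 6 middle cells with sums above 2 times the median are the middle cells with spike-in shares of 28.6% or more, and 2 of them, ranks 38 and 41, have the highest endothelial sums.

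Many of the highest log2 ratios were in 2 gene families of near-identical copies, the Mup and Cyp2c genes, and their sequences show how far reads can tell copies apart. The Mup genes on chromosome 4 encode major urinary proteins, the pheromone carriers that male mice make in the liver, and Mup15 (61435790 to 61439743), Mup17 (61591929 to 61595871) and Mup19 (61778324 to 61782269) are shown because they had the highest Mup log2 ratios. Below are coding bases 130 to 249 of each, from GENCODE release 21 transcripts on mm10, with capitals where a base differs from Mup17:
Mup17: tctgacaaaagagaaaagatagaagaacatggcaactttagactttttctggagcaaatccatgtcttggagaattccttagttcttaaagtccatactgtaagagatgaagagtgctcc
Mup15: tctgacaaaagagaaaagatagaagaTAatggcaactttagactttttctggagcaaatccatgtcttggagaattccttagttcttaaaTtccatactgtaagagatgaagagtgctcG
Mup19: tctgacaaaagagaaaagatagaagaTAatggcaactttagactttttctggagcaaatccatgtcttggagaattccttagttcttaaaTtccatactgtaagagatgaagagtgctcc
Over the whole coding sequence of 540 bases, Mup15 differed from Mup17 at 8 positions, Mup19 from Mup17 at 5, and Mup15 from Mup19 at 3. Of all stretches of 50 bases in the transcript, 100% of those of Mup15 and of Mup19 and 78.1% of those of Mup17 also occur in another gene, against 15.6% for Mup3. Values of single Mup copies other than Mup3 are therefore uncertain, since they rest on how reads were divided among copies.

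The Cyp2c genes on chromosome 19 encode P450s that oxidise drugs and fatty acids. Coding bases 791 to 850 of 3 of them are shown because all 3 were called higher, with capitals where a base differs from Cyp2c50:
Cyp2c50: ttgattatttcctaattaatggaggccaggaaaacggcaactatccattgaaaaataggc
Cyp2c37: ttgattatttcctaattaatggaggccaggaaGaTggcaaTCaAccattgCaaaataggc
Cyp2c54: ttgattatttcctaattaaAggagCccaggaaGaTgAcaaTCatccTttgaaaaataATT
Within 1470 coding bases Cyp2c37 differed from Cyp2c50 at 57 and Cyp2c54 from Cyp2c50 at 70. Stretches of 50 bases shared with another gene made up 30.7% of Cyp2c50, 30.1% of Cyp2c37, 25.7% of Cyp2c54, 2.08% of Cyp2c29 and 72.1% of Cyp2c40. The copies of this family shown here are thus easier to separate than Mup15, Mup17 and Mup19, Cyp2c40 excepted.

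Over the 9942 genes above 0 in at least 20% of the 64 cells, 168 were called higher in pericentral cells (1.69%) and 177 lower (1.78%), 3.47% in either direction. The median log2 ratio of all these genes was -0.53, and -0.13 without the 6 cells of large sums. Without those cells 159 genes were higher (1.6%) and 133 lower (1.34%), of which 108 and 71 were also called with all cells. With each cell rescaled to the same sum, 202 genes were higher and 106 lower, and by the difference of mean log2 243 were higher and 104 lower, so the balance of directions depends on the scaling. The lower calls rested more on the cells of large sums than the higher calls. Counting the fold alone, with no limit on separation, would have given 670 higher and 3261 lower genes. Cyp1a2 was the 1 gene called higher with no overlap of cells, and 0 lower genes had none. The shares of 1.69% and 1.78% over all genes are the background for the list counts below. In a short list a count of 0 or 1 is near them and is not a result about that list.

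**Figure D3:**
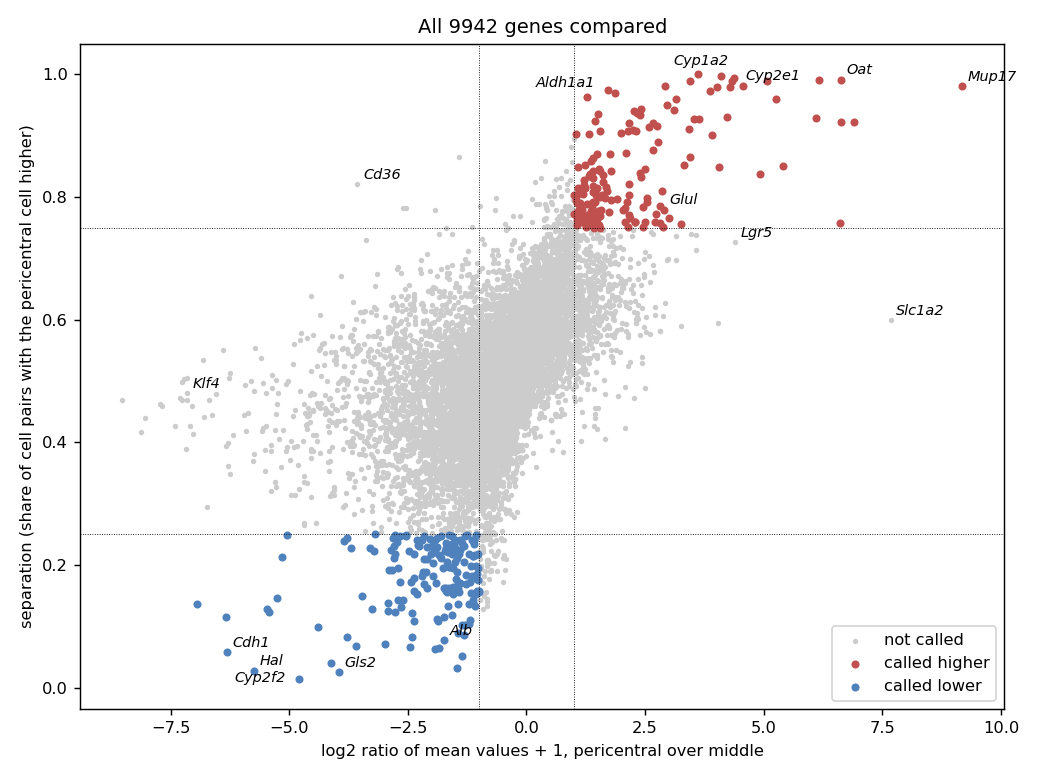
Log2 ratio of pericentral over middle means (horizontal) against the separation of the cells (vertical) for 9942 genes, each point a gene. Red and blue points are the 168 and 177 called genes, dotted lines the limits. Klf4, Cd36 and Slc1a2 have large ratios but do not meet the separation limit in the same direction.

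Cytochrome P450 enzymes were the list with the most genes higher in pericentral cells, 16 of 45 members and electron donors, with 1 lower (15 and 3 without the cells of large sums). The median log2 ratio of the list was 0.32, against -0.53 over all genes. Cyp2c50 ran from 0 through a median of 4.76 to 1391 in middle cells and from 832 through 2040 to 4404 in pericentral cells, with a log2 ratio of 3.45. Cyp2c37 ran from 0 through 0 to 98.8 and from 11.3 through 382 to 2176 (log2 ratio 6.17). Cyp2c54 ran from 0 through 0 to 261 and from 57.1 through 407 to 1695 (log2 ratio 5.07). In each of the 3, the highest middle cell lay below the pericentral median. Cyp2c38 and Cyp2c40 also had log2 ratios of 6.91 and 6.09. Cyp2a5, which oxidises nicotine and coumarin, was above 0 in 5 of 22 middle cells, none above 6.12, and in 19 of 21 pericentral cells, up to 1176, with 40.8% of its 50-base stretches shared with other genes. Cyp3a11, a main drug-metabolising P450 named here after its values were seen, went from 177 ± 362 to 6787 ± 4723 (SD over cells). Por, which passes electrons to these enzymes, was likewise seen and then named, with 16.2 ± 18.1 and 54.5 ± 47.8 and a log2 ratio of 1.69. The exception in direction was Cyp2f2, which ran from 47.3 through 4381 to 6941 in middle cells and from 0.35 through 5.09 to 2556 in pericentral cells. Its mean went from 3623 ± 2189 to 130 ± 556, a log2 ratio of -4.79, and the pericentral value next to that of rank 44 was 22.6.

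Enzymes that attach groups to oxidised compounds followed in smaller part. Of 25 genes of glutathione transfer and synthesis 6 were higher and 0 lower (4 higher without the cells of large sums). Gstm2, a glutathione transferase, ran from 0 through 0.385 to 98.7 in middle and from 8.93 through 101 to 995 in pericentral cells, a log2 ratio of 3.63, and Gstm3 had a log2 ratio of 2.73 with wider overlap (separation 0.77). Gstm6, at 1.40, was no longer called without those cells. Of 23 genes of glucuronidation and sulphation 6 were higher and 1, Ugt2b38, lower at -2.17, and without those cells 3 were higher. Of 23 flavin monooxygenases, esterases and related enzymes 2 were higher and 0 lower (3 and 1 without those cells). The 2 were the carboxylesterase Ces2c, with a mean of 12.2 ± 27.6 and 192 ± 172, and Akr1c6, a steroid dehydrogenase, with 1876 ± 1548 and 5308 ± 1579.

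Among 17 xenobiotic and nuclear receptors 2 were higher and 0 lower. Ahr, the receptor for dioxins and related compounds, ran from 0 through 1.30 to 463 in middle cells and from 20.4 through 113 to 524 in pericentral cells, with a log2 ratio of 1.23 that became 2.80 without the cells of large sums. Nr1i3, which encodes the receptor CAR, ran from 0 through 0 to 65.97 and from 0 through 56.2 to 180, with a log2 ratio of 2.77. For both, most pericentral cells lay above most middle cells, with separations of 0.85 and 0.89. Cpox, an enzyme of the synthesis of haem, the cofactor of P450s, was the 1 gene called of 11 in its list, at 1.31, and without the cells of large sums Blvrb, a biliverdin reductase, was also called higher, at 1.59.

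Of 11 Wnt pathway targets and feedback genes 2 were higher and 0 lower. Tbx3, a transcription factor, was above 0 in 7 of 22 middle cells and in all 21 pericentral cells, where it ran from 12.04 through 61.1 to 182, and its log2 ratio was 2.96. Notum, which inactivates Wnt ligands, had a log2 ratio of 1.38 on means of 0.251 and 2.25 and was named after its values were seen. Lgr5, the receptor for R-spondins, had a log2 ratio of 4.39 but was above 0 in 12 of 21 pericentral cells, with 372 in rank 61 and at most 48.9 in any other, and was not called. The values of Lgr5 therefore describe a few of these cells and not the group.

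Genes of glutamine synthesis, which captures ammonium next to the central vein, were highest in the last ranks. Of 11 genes for handling glutamine and ammonium 2 were higher, Oat and Glul, and 2 lower, Gls2 and Slc7a2. Glul, the glutamine synthetase (chromosome 1, 153899944 to 153909723), ran from 0 through 9.60 to 898 in middle cells and from 3.35 through 69.2 to 5018 in pericentral cells. It reached 1000 in 3 pericentral cells, with 1474 in rank 60, 2259 in rank 63 and 5018 in rank 64. The highest middle value of Glul, 898, was in rank 41, which has the full set of endothelial markers and a large sum, and without the cells of large sums the log2 ratio went from 2.90 to 4.74. Slc1a2, a glutamate importer, was listed at 0 in 14 of 21 pericentral cells and was 100 or more in 5, all from rank 58 onward, up to 2139 in rank 64. Its log2 ratio of 7.68 came with a separation of 0.60, so it was not called. In the same last cells Arg1, the arginase that ends the urea cycle, was 2.10 in rank 60, 4.75 in rank 62, 5.73 in rank 63 and 1.30 in rank 64, while its pericentral median was 498. Thus the 3 cells with Glul of 1000 or more were among the 4 cells with the lowest Arg1.

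**Figure D4:**
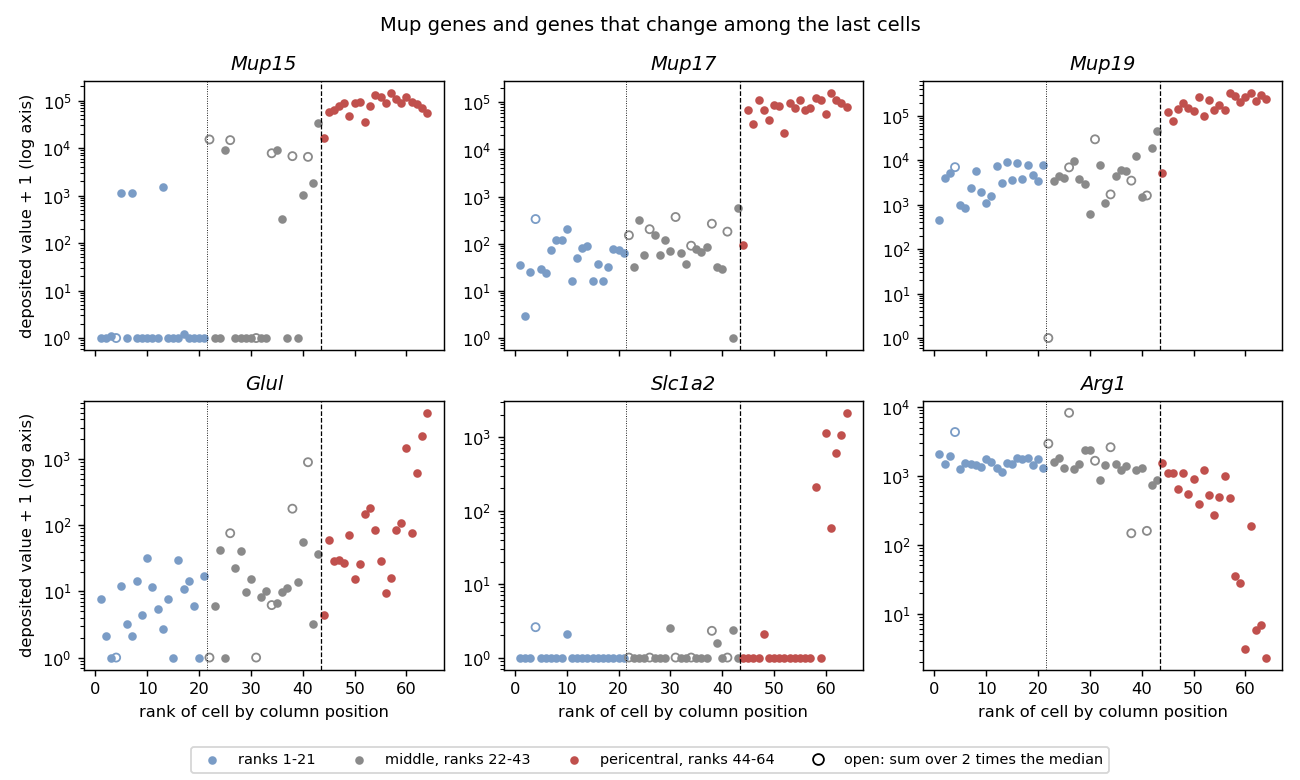
Values of 6 genes in the 64 large-chip cells by rank (log axis, deposited value + 1; open circles are cells with large sums). Mup17 and Mup19 step up after rank 44, whereas Glul of 1000 or more, Slc1a2 of 100 or more and Arg1 under 100 are found only at rank 58 and later.

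Differences within the pericentral group were measured as the mean of its last 7 cells (ranks 58 to 64) over that of its first 7 (ranks 44 to 50), with the same limits. Over all genes 444 were higher in the last 7 (4.47%) and 446 lower (4.49%). Among the 168 genes higher in the pericentral group, 47 were also higher at its end and 2 lower. Among the 177 lower genes, 35 were also lower at its end and 1 higher. Oat had means of 228 and 3186 in the first and last 7 cells, Cyp2a5 of 27.4 and 427, and Cyp2c37 of 207 and 1251. By contrast Cyp2e1, Cyp2c29, Cyp7a1 and Mup17 were not called between the ends of the group, with log2 ratios of 0.73, 0.57, 0.43 and 0.82. Of the urea cycle, 6 of 11 genes were lower at the end and 0 higher, and of the periportal list 15 of 28 and 0. These counts share their cells with the order itself and describe it. The first and last 7 cells also belong to the group by which the 168 and 177 genes were called, so part of that overlap is built in.

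Bile acid synthesis from cholesterol differed at its first step. Cyp7a1, the rate-limiting enzyme (chromosome 4, 6265612 to 6275633), was above 0 in 10 of 22 middle cells, with a median of 0 and a highest value of 176, and ran from 32.8 through 290 to 1047 in pericentral cells. Its mean went from 17.8 ± 40.5 to 368 ± 263, a log2 ratio of 4.30. Of 15 genes of the pathway, Cyp7a1 and Akr1c6 were higher and Cyp39a1, an oxysterol hydroxylase, lower at -5.43. Cyp8b1, the sterol hydroxylase that makes cholic acid, had medians of 177 and 249 and was not called. Slco1b2, an uptake carrier for bile acids and drugs, ran from 24.4 through 999 to 3280 and from 1919 through 3879 to 8654, a log2 ratio of 1.86. It and the efflux pump Abcg2, at 1.04, were the 2 genes higher of 21 transporters, and without the cells of large sums 3 were higher, the call of Abcg2 having ended and the pump Abcc2 being called at 1.36. Of 23 genes of cholesterol synthesis 1 was called, Sqle, the squalene epoxidase, lower at -2.37.

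Vitamin C synthesis had 2 higher genes of 5. Rgn, the gluconolactonase regucalcin (chromosome X, 20549787 to 20562089), ran from 0 through 45.3 to 3023 in middle and from 1572 through 3504 to 8421 in pericentral cells, with a log2 ratio of 2.93. Gulo, the last enzyme of the pathway, ran from 0 through 0.725 to 127 and from 28.5 through 144 to 348, with a log2 ratio of 3.16. Both overlapped between the groups in a few cells. Among 23 alcohol, aldehyde and retinol dehydrogenases 4 were higher and 2 lower (3 and 2 without the cells of large sums). Aldh1a1, which oxidises retinal, ran from 6.07 through 504.3 to 1450 and from 1082 through 1766 to 3121, with a log2 ratio of 1.73. Hsd17b6, a steroid and retinol dehydrogenase, had means of 222 ± 273 and 5.28 ± 12.9, a log2 ratio of -5.15.

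The Mup genes differed in both directions. Of 21 genes for major urinary proteins and other lipocalins 6 were higher and 3 lower, both with and without the cells of large sums. Mup17 ran from 0 through 80.1 to 579 in middle cells and from 91.1 through 78729 to 155592 in pericentral cells, with a mean of 137 ± 139 and 80552 ± 36377 and a log2 ratio of 9.19. Only the cell of rank 44, at 91.1, lay within the middle range. Mup15 had means of 4850 ± 8276 and 83425 ± 31053 (log2 ratio 4.10), and Mup19 of 8088 ± 11053 and 191709 ± 84844 (log2 ratio 4.57). As the sequences above show, how these values are split among the copies is uncertain. Mup3, which shares few stretches with the others (chromosome 4, 62083476 to 62087342), ran from 7203 through 66756 to 209233 in middle cells and from 19870 through 31156 to 51819 in pericentral cells. Its log2 ratio of -1.32 was opposite to that of Mup17.

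Genes of the periportal list were lower in pericentral cells in 16 of 28 cases and higher in 0 (17 and 0 without the cells of large sums), with a list median of -1.68 against -0.53 over all genes. Some of these genes were chosen with zonation in these data known, so the count is not independent of them. Hal, which starts histidine breakdown (chromosome 10, 93488768 to 93519304), ran from 2.34 through 343 to 1153 in middle cells and from 0 through 0.82 to 85.03 in pericentral cells, with a log2 ratio of -5.74. Sds, which turns serine into pyruvate, was above 0 in 18 of 22 middle cells, up to 617, and in 4 of 21 pericentral cells, up to 13.2, with a log2 ratio of -6.32. Gls2, the liver glutaminase, ran from 13.97 through 87.8 to 1066 and from 0 through 0 to 83.3, with a log2 ratio of -3.96. For Hal and Gls2 most pericentral cells lay below the lowest middle cell, whereas for Sds all pericentral cells lay within the middle range, since 4 middle cells were also at 0. Cdh1, which encodes E-cadherin, was above 0 in 20 of 22 middle and 4 of 21 pericentral cells, none of the latter above 1.45. Its log2 ratio of -6.32 became -4.68 without the cells of large sums, one of which, rank 34, held 1181. Cldn2, a pore-forming claudin of tight junctions, differed the other way, with means of 17.6 ± 39.5 and 123 ± 99.6 and a log2 ratio of 2.74. Hsd17b13, a lipid droplet enzyme, ran from 14.8 through 893 to 1724 and from 0.73 through 7.06 to 233, with a log2 ratio of -4.12, whereas Fitm1, which promotes droplet formation, was higher at 4.22.

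Amino acid breakdown had 8 lower genes of 41 and 0 higher (6 and 1 without the cells of large sums). All 4 enzymes of the histidine pathway listed were among the lower ones, with log2 ratios of -5.74 for Hal, -2.45 for Uroc1, -3.46 for Amdhd1 and -2.79 for Ftcd. In the urea cycle 1 of 11 genes was lower, Arg1 at -1.66, and 2 without the cells of large sums. In gluconeogenesis 2 of 12 were lower. Pck1, the rate-limiting carboxykinase, ran from 232 through 2490 to 20422 and from 260 through 1319 to 2065, with a log2 ratio of -1.67 that became -1.05 without the cells of large sums. Fbp1, the fructose bisphosphatase, had a log2 ratio of -1.12. Their pericentral cells all lay within the middle range.

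Secreted plasma proteins differed in both directions. Alb, which encodes albumin (chromosome 5, 90460897 to 90476602), ran from 11317 through 47352 to 112783 in middle cells and from 3846 through 13247 to 43682 in pericentral cells. Its mean went from 50376 ± 25288 to 15193 ± 9700, a log2 ratio of -1.73, and the groups overlapped. Of 36 plasma proteins and apolipoproteins 8 were lower and 3 higher (6 and 3 without the cells of large sums). Serpina7, the thyroxine-binding globulin, was the 1 of these with the highest ratio, 6.62, and was above 0 in 6 middle cells, up to 36.3, and in 13 of 21 pericentral cells, up to 1293. Complement had 8 lower genes of 22, but 1, C8a, without the cells of large sums. Acute phase proteins had 5 of 19 and then 2, ribosomal proteins 7 of 30 and then 0, and nuclear-encoded oxidative phosphorylation 3 of 33 and then 0. For these lists most lower calls were not made without the cells of large sums. C8a itself, a part of the membrane attack complex, ran from 358 through 905 to 4426 and from 91.3 through 428 to 761, a log2 ratio of -1.36 with all cells and -1.16 without them. Of 15 genes of iron handling 3 were lower, the iron carrier Trf at -1.69, the ferroxidase Cp at -1.05 and the haem carrier Hpx at -2.70, and without those cells Hpx alone was called, at -1.31. Of 21 coagulation genes 1 was lower, Kng1, which encodes kininogen, at -1.27, and 4 without those cells, when the fibrinogen chains Fga, at -1.13, Fgb, at -1.06, and Fgg joined it. Of 20 genes of glycolysis and lipogenesis 2 were lower, and Acly, which makes cytosolic acetyl-CoA, was so in both comparisons, at -2.71 and -1.73. Metallothioneins Mt1 and Mt2, which bind zinc, were lower at -1.45 and -1.85, the 2 genes called of 7 in their list.

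**Figure D5:**
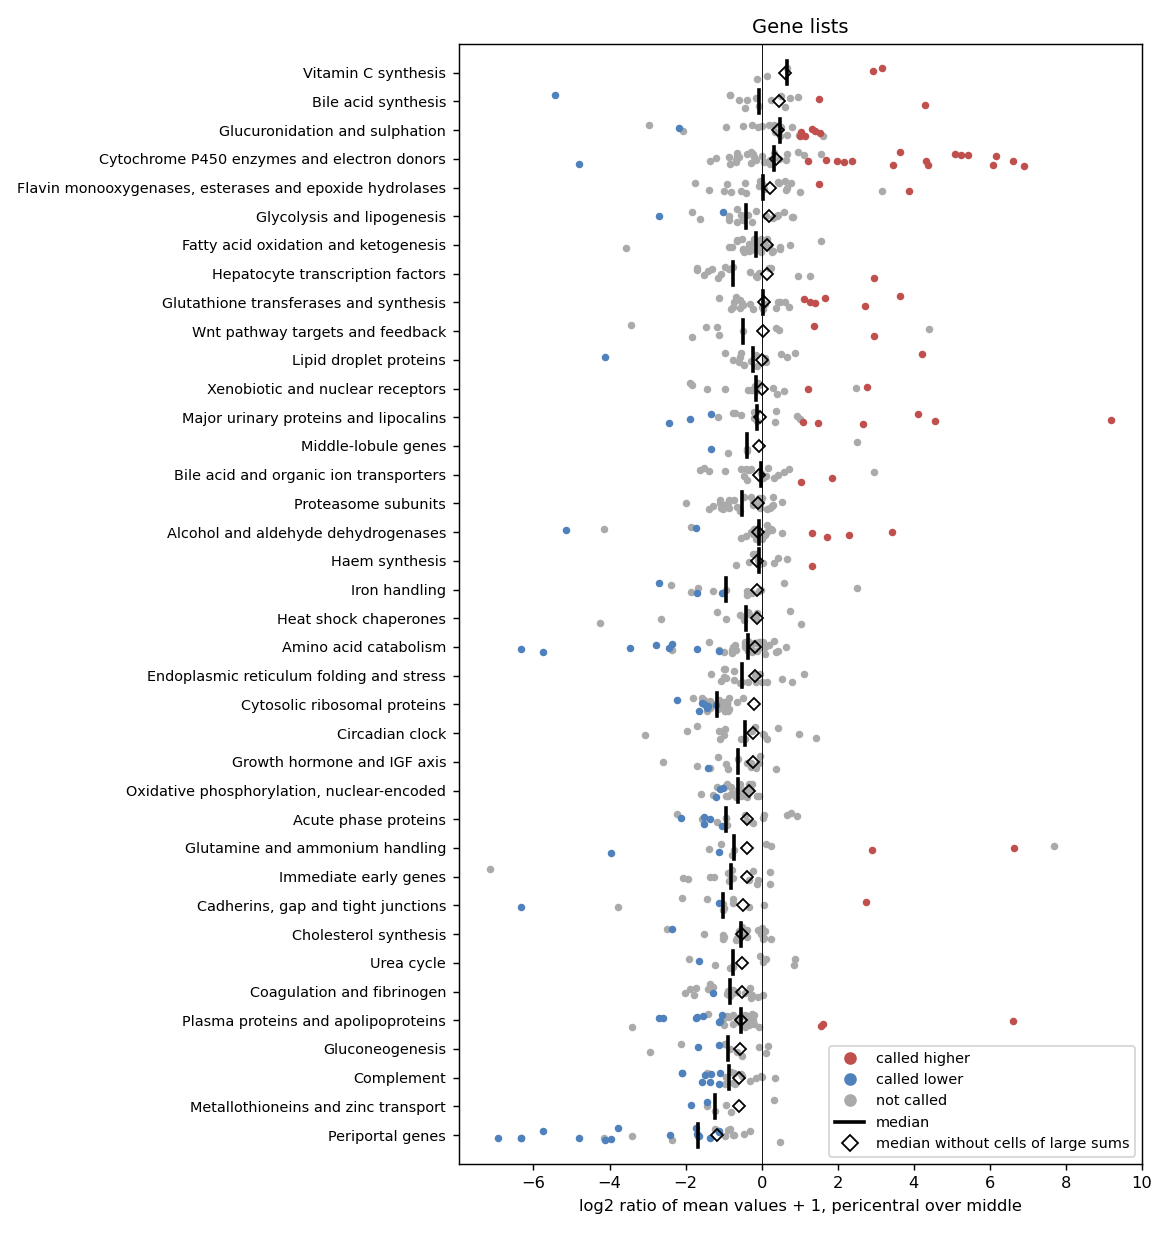
Log2 ratio of pericentral over middle means for the members of each gene list (points), with the list median (bar) and the median without the 6 middle cells of large sums (diamond). Red and blue points are called genes. Ribosomal proteins have a median of -1.17 with all cells and -0.19 without these 6, and periportal genes stay lowest, at -1.68 and -1.18.

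Lists with 0 calls in either direction with all cells were fatty acid oxidation and ketogenesis (31 genes), the circadian clock (17), immediate early genes (16), heat shock chaperones (12), endoplasmic reticulum folding (19) and proteasome subunits (28). Over all genes 3.47% were called, so 0 calls in lists of these sizes is near the share over all genes. Without the cells of large sums, fatty acid oxidation had 2 genes called higher, Cd36 and the thiolase Acaa1b, at 4.63 and 1.30, the clock had Hlf higher at 1.13, chaperones had Hspa1b higher at 1.33 and immediate early genes had Ier2 lower at -1.03, and the last 2 lists still had 0. Cd36, a fatty acid importer, shows how few cells can set a mean. It was above 0 in 8 of 22 middle and in 20 of 21 pericentral cells, yet the middle cells of ranks 38 and 41 held 8925 and 6750, and its log2 ratio was -3.56 with all cells and 4.63, called higher, without the cells of large sums. Klf4, a transcription factor of endothelium among other cells, had a log2 ratio of -7.15 with a separation of 0.48 and was above 0 in 5 cells of each group, and without the cells of large sums its log2 ratio was -1.63. The cells of ranks 38 and 41, which hold the high Cd36 values, are those with all endothelial markers.

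Genes highest in the middle group were sought as those with a mean at least 2 times that of ranks 1 to 21 and of the pericentral cells, and a separation of at least 0.75 from both. This found 1 gene of 9942 (0.0101%), Mmp14, a membrane-bound metalloproteinase, with means of 2.62 in ranks 1 to 21, 14.2 in the middle and 1.15 in pericentral cells. Without the cells of large sums it found 0. Of 5 genes listed as middle-lobule genes 0 met these limits. Hamp ran from 5.12 through 445 to 2395 in middle cells and from 0 through 113 to 1574 in pericentral cells, with a separation of 0.42. In ranks 1 to 21 Hamp ran from 44.05 through 249 to 774, so its median was highest in the middle, short of the limits. Within the pericentral group its mean was 518 in the first 7 cells, 661 in the next 7 and 28.9 in the last 7. Hamp thus differed along the pericentral ranks more than between the groups. Mup3, also listed as a middle-lobule gene, had medians of 67883 in ranks 1 to 21, 66756 in the middle and 31156 in pericentral cells.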

How the data were processed

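RNA was measured in 149 single cells of 1 mouse, and the 43 cells compared come from the large chip. Per the submitters' processing notes, CASAVA 1.8.2, Bowtie 0.12.9 and RSEM 1.2.3 were used with mm10. The signal values deposited by the authors are normalised expected counts, in 1 table with 2 decimals, and how many reads lie behind a value is unknown. The name of the table mentions SCnorm and WaveCrest. It holds 20308 mouse genes and 92 spike-ins, and 0 columns lacked a sample. The labels give no batch, run or date.

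The members, lists and call limits were chosen with earlier results of these data known. Genes above 0 in 20% of the 64 cells were compared, with a pseudocount of 1. Of 816 listed symbols 1 was not matched and 8 were matched by another name. Genes were named by rule: the 4 markers, the 15 called genes in each direction with the separation farthest from 0.5, in each list the up to 4 genes of largest log2 ratio, up to 10 genes highest in the middle, all with a mean at or above the median gene, and all members of lists of 5 or fewer. Other named genes complete counts of 5 or fewer or were chosen after their values were seen. Counting was tested on simulated data. Alternatives covered the pseudocount, rescaling, detection, the limits, the groups and left-out cells. Gene positions and sequences are from GENCODE release 21. Scripts ran in Python 3.11.15 with matplotlib 3.10.9, scipy 1.17.1, pandas 2.3.3 and numpy 2.4.6.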

Additional observations from a re-analysis of the deposited data

How the results depend on the processing

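No paired analysis was possible because all cells come from 1 mouse, their numbers name cells only, and no result comes from a test. Leaving out each cell in turn gave 152 to 188 genes higher, 148 to 217 lower and 0 to 4 highest in the middle, against 168, 177 and 1. The lowest higher count came without the cell of rank 31, the lowest lower count without that of rank 34. Genes highest in the middle numbered 0 without any of several single cells, rank 22 among them, and 4 without rank 31. A pseudocount of 10 gave 102 higher genes. The lower genes were 106 with each cell rescaled to the same sum, 278 without 3 cells on each side of the border and 104 by the difference of mean log2. Averages without the highest cell of each group gave 258 higher. A separation limit of 0.5 gave 644 higher, 2358 lower and 917 highest in the middle, and one of 0.85 gave 57, 46 and 0. Genes highest in the middle numbered 0 with a pseudocount of 10, with rescaling and without the cells of large sums (the same cells as a spike-in limit of 10%). They numbered 4 without cells with markers of other cell types, 2 without the border cells and 2 with a fold limit of 1.5. With 2 alternatives chosen after seeing the data they numbered 3 without cells of large sums or other markers and 5 with ranks 22 to 37 as the middle. Rescaling moved the median log2 ratio of all genes by 0.25, leaving out cells of large sums by 0.40 and the difference of mean log2 by 0.61. Of 82 called genes named by the rule, 10 moved by more than the spread between cells without the cells of large sums, and 0 reversed.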

Other observations

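Cells of the medium and small chips were placed by their columns between the same border cells. With spike-in shares under 50%, 11 fell among the middle ranks and 4 among the pericentral ranks. Of the 4, 1 had all 16 endothelial markers at 10 or more, with a sum of 87465 over them. Of the 11, 1 had all 12 Kupffer cell markers at 10 or more and a hepatocyte sum of 2800. Another had 5 Kupffer cell markers at 10 or more. Most of the 11 and some of the 4 had large sums, above the same limit of 2 times the median. No cell was left out for this, and its effect on the values below was not tested. The 11 and 4 cells belong to the same deposited order and the same mouse, so they are not an independent check. Of the 168 genes higher in large-chip pericentral cells, 61.9% had a log2 ratio above 0 in these cells, against 41.9% of all 9942 genes. Of the 177 lower genes 77.4% had one below 0, against 56.7% of all. In the 46 and 4 cells of these chips with spike-in shares of 50% or more, 42.9% of the higher genes were above 0, against 30.8% of all, and 55.4% of the lower genes were below 0, against 64.9% of all. Among the cells under 50%, Cyp2e1 had means of 316 ± 518 (SD, n = 11 cells) and 26431 ± 34928 (SD, n = 4 cells), and Cyp2f2 of 5376 ± 2764 and 46.5 ± 65.1. Mup17 had means of 4948 ± 10130 and 65903 ± 44371. The spread of the 4 pericentral cells was wider than the mean for Cyp2e1, so the sizes of these ratios are loose. Gulo differed little there, with means of 66.1 and 74.4. Slc1a2 had means of 0.62 and 0.44. The 4 pericentral cells stood at columns 122, 135, 136 and 138. In the large-chip order the high Slc1a2 values began at column 143, with 207 in rank 58. No cell of the smaller chips stood that far along, so these means cannot show whether such cells occur on those chips.

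Genes known from bile duct cells were also uneven. Spp1, which encodes osteopontin, was 40057 in the middle cell of rank 34, a cell of large sum, and at most 58.98 in pericentral cells. Summed bile duct markers reached 42149 in the same middle cell and 247 in pericentral cells, with medians of 384 and 81.65 in the groups. The highest Spp1 in ranks 1 to 21 was 26143, in rank 4, also a cell of large sum. Sox9, a transcription factor of bile duct cells that periportal hepatocytes also express, had medians of 61.4 in ranks 1 to 21, 96.8 in ranks 22 to 37, 5.63 in ranks 38 to 43 and 0 in pericentral cells. Krt19 and Epcam, which define bile duct cells, were listed at 0 in both groups.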
